A study of Mus musculus with 22 samples.

Results

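The protein kinase C genes Prkca, Prkcb, Prkcd, Prkce, Prkch, Prkcq, Prkci and Prkcz were followed by symbol in the raw count tables of a translating ribosome affinity purification study of the mouse striatum. They are 8 of the 55341 genes in those tables. Mice carried an EGFP-tagged ribosomal protein Rpl10a in medium spiny neurons that express the dopamine receptor Drd1 (D1 neurons), so that pulling down EGFP (IP) enriches ribosome-bound mRNA of these neurons, and a sample of the same cleared lysate gave an input library (Total in the labels). The KO group held 5 Fmr1 mutant mice, which model fragile X syndrome (animals 2, 3, 9, 10 and 11), and the WT group held 6 mice (animals 1, 4, 12, 13, 14 and 20). All animals, WT included, carried the tagged Rpl10a. Each animal gave 1 IP and 1 input library, 22 in all, and the labels give no age, sex, strain or litter. Fmr1 encodes FMRP, an RNA-binding protein found on ribosomes, and the series title asks how translation of mRNA differs in D1 neurons of these mice.

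Protein kinase C enzymes phosphorylate serine and threonine residues and relay signals from receptors that activate phospholipase C. Classical isoforms (among them alpha and beta, from Prkca and Prkcb) need both calcium and diacylglycerol, a second class (delta, epsilon, eta and theta, from Prkcd, Prkce, Prkch and Prkcq) need diacylglycerol but not calcium, and the atypical isoforms (iota and zeta, from Prkci and Prkcz) need neither and act in cell polarity complexes. In striatal neurons, group I metabotropic glutamate receptors and muscarinic receptors that couple to Gq feed this pathway.

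In GENCODE vM21 (GRCm38/mm10) all 8 are protein-coding genes. Prkca lies on the minus strand at chr11:107933387-108343928, Prkcb on the plus strand at chr7:122288751-122634402, Prkcd on the minus strand at chr14:30595354-30626210 and Prkce on the plus strand at chr17:86167785-86657919. Prkch lies on the plus strand at chr12:73584796-73778185, Prkcq on the plus strand at chr2:11172108-11301222, Prkci on the plus strand at chr3:30995747-31052959 and Prkcz on the minus strand at chr4:155260129-155361361. The longest annotated coding sequence ran from 592 codons in Prkcz to 737 codons in Prkce. The libraries did not mark the strand, and Prkca shared 0.33% of its exon bases with Apoh on the opposite strand. Prkce shared 6.5% of its exon bases with AC154542.1, so reads there could belong to either gene.

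RefSeq promoters (GRCm38.p6, 250 bases before to 50 after a start) were matched for 6 of the 8 genes, 9 promoters in all, and Prkce and Prkch had no entry. Those of Prkca and Prkcb are printed 5′ to 3′ because these 2 isoforms had an unadjusted p under 0.05 between the genotypes in both assays. The Prkca promoter (minus strand, chr11:108343839-108344138) had a GC content of 75.3% and the Prkcb promoter (plus strand, chr7:122288875-122289174) one of 65.3%, against a median of 52.7% over 32851 promoters. Capitals mark the GC box GGGCGG on either strand.
Prkca: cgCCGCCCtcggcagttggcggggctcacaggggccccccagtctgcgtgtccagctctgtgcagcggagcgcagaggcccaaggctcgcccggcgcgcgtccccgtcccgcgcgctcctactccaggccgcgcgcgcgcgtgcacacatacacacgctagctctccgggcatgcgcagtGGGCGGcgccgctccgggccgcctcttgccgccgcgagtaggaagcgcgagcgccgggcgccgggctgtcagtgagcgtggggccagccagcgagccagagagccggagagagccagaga
Prkcb: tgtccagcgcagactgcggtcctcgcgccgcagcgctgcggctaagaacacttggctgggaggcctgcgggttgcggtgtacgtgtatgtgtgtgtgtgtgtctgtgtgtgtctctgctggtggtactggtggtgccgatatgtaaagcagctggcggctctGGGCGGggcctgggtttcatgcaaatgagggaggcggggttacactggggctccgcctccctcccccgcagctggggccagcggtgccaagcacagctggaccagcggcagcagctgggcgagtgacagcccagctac
The GC box occurred 2 times in the Prkca promoter and 1 time in the Prkcb promoter, and 35.7% of all 32851 promoters held at least 1. The TATA motif TATAAA was in neither, and it was in 13.6% of all promoters. Prkcz had 3 promoters in the table, and the counts per gene combine transcripts from all of them, including short brain transcripts that encode only the catalytic part (protein kinase M zeta).

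Library totals ran from 9375611 to 82376192 counts in IP and from 25164548 to 43276230 counts in input, and 0.420 to 0.904% of IP counts and 25.1 to 53.2% of input counts came from mitochondrial ribosomal RNA. Levels are given as CPM (a count as a share of its library, with TMM factors taken within each assay), so CPM of IP and input are not on one scale. Fmr1 had 9.44 to 13.2 CPM in KO IP libraries and 79.8 to 124.6 CPM in WT IP libraries, and in input 9.68 to 12.9 CPM in KO and 51.6 to 63.4 CPM in WT, as labelled. All 10 markers of D1 neurons passed the test as higher in IP than in input in both genotypes, and all 6 measured markers of D2 neurons, the other projection neuron class, passed as lower. Animals 1 and 12 (WT) and 3 and 9 (KO) stood apart from the other 7. Their 10 cortical excitatory neuron markers summed to 112 to 319 CPM in IP, against 13.2 to 20.5 CPM in the other 7, and to 143 to 572 CPM in input, against 78.5 to 117 CPM. None of the 10 was at 0 in IP of these 4 animals, whereas each of the other 7 IP libraries had 1 to 4 of them at 0, Emx1 among them in all 7. In IP the 4 animals were also higher in the summed markers of interneurons (28.6 to 60.4 against 17.5 to 26.6 CPM) and astrocytes (335 to 576 against 167 to 256 CPM). Values without these animals are given for the genotype comparisons and, in IP against input, for Prkcd and Prkcq.

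Levels per exon length (RPKM, from the CPM) put the beta isoform far above the rest. In IP, Prkcb averaged 341 ± 45.2 RPKM in KO and 411 ± 35.7 RPKM in WT (SD, n = 5 KO and 6 WT throughout). Prkce came next with 109 ± 8.08 RPKM in KO and 107 ± 2.85 RPKM in WT. The ranges of these neighbours did not overlap in either genotype. Prkcb made up 60.0% ± 2.65 of the summed RPKM of the 8 genes in KO IP and 63.9% ± 1.58 in WT IP, and in input 44.6% ± 1.67 in KO and 46.2% ± 2.40 in WT. These shares depend on the exon lengths used. In the GENCODE basic set Prkcb has 3569 exon bases instead of 7651, and Prkce 6254 instead of 7261. Shares with the basic lengths were not calculated.

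The middle of the order was close. In KO IP, Prkca (33.2 ± 2.82 RPKM), Prkcz (32.4 ± 2.43 RPKM) and Prkci (29.5 ± 3.15 RPKM) had overlapping ranges, and Prkch (20.7 ± 2.0 RPKM) lay below all of them. In WT IP, Prkca (43.2 ± 4.39 RPKM) lay above Prkcz (30.6 ± 2.76 RPKM) in 6 of 6 libraries with no overlap, while Prkcz, Prkci (29.7 ± 5.75 RPKM) and Prkch (20.8 ± 3.05 RPKM) overlapped each with the next. The last places went to Prkcd, with 0.120 ± 0.171 RPKM in KO IP and 0.169 ± 0.257 RPKM in WT IP, and Prkcq, with 0.0455 ± 0.0447 RPKM in KO IP and 0.0312 ± 0.0290 RPKM in WT IP, whose ranges overlapped. With exon lengths from the GENCODE basic set, a choice made after the data were seen, Prkcb, Prkce, Prkcd and Prkcq kept their places in IP, and the middle 4 changed order among themselves, with Prkch at rank 3 in KO and 4 in WT.

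In input the leading pair was the same, with Prkcb at 73.5 ± 3.55 RPKM in KO and 87.3 ± 11.1 RPKM in WT and Prkce at 42.0 ± 5.54 RPKM in KO and 45.5 ± 1.66 RPKM in WT. Prkcz (16.5 ± 1.38 RPKM in KO, 16.6 ± 1.22 RPKM in WT), Prkca (12.6 ± 1.57 RPKM in KO, 15.5 ± 2.19 RPKM in WT) and Prkci (12.3 ± 1.84 RPKM in KO, 13.7 ± 2.85 RPKM in WT) followed with overlapping ranges between neighbours. Prkch had 5.99 ± 0.989 RPKM in KO and 7.83 ± 1.62 RPKM in WT. At the low end Prkcq (1.09 ± 0.113 RPKM in KO, 1.16 ± 0.241 RPKM in WT) stood above Prkcd (0.683 ± 0.447 RPKM in KO, 0.844 ± 0.423 RPKM in WT), the reverse of their order in IP, and their ranges overlapped. In bulk libraries, fewer cells of a type and less RNA per cell cannot be told apart.

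**Figure D1:**
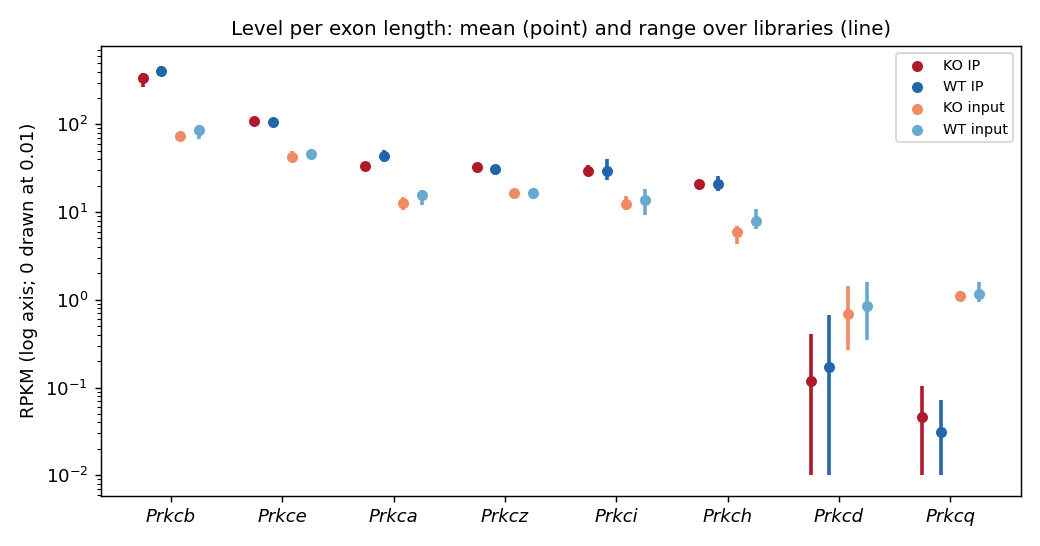
Level of each gene per exon length, in RPKM on a log axis, with points for the group mean and lines for the range over libraries (KO IP, WT IP, KO input, WT input; libraries at 0 drawn at 0.01). Prkcb leads every group, Prkce is second, and Prkcd and Prkcq lie far below the others.

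IP against input asked which isoforms were over-represented on the tagged ribosomes of D1 neurons. Of the 8 genes, 6 (Prkca, Prkcb, Prkce, Prkch, Prkci and Prkcz) were higher in IP than in input and 2 (Prkcd and Prkcq) were lower, in both genotypes, by edgeR's quasi-likelihood test with Benjamini-Hochberg adjustment at 0.05. Over all 17311 genes tested, 47.3% were called in KO (20.9% higher and 26.4% lower) and 49.6% in WT (21.8% higher and 27.8% lower). The median log2 difference of the 8 genes was 0.89 in KO and 0.76 in WT, against a median over all genes of -0.11 in each genotype. Both genotypes' values are relative to the other genes of the library.

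Prkcb had the largest log2 difference of IP over input among the 8, 1.79 ± 0.10 in KO (SE, adjusted p = 4.20e-14) and 1.82 ± 0.09 in WT (adjusted p = 3.13e-15), which stands at the 99.6th percentile of all tested genes in KO and the 99.7th in WT. Per animal, with CPM scaled over all 22 libraries, its log2 ratio was 1.53 to 1.96 in KO and 1.64 to 1.94 in WT. Prkca, also a classical isoform, differed by 0.97 ± 0.10 in KO (adjusted p = 1.51e-08) and by 1.07 ± 0.09 in WT (adjusted p = 4.65e-10). Its ratio per animal was 0.80 to 1.19 in KO and 0.78 to 1.25 in WT.

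Of the calcium-independent isoforms that need diacylglycerol, Prkch rose in IP by 1.36 ± 0.14 in KO (adjusted p = 4.65e-09) and by 1.00 ± 0.12 in WT (adjusted p = 1.33e-07). Prkce, an isoform with an actin-binding motif, rose by 0.95 ± 0.07 in KO (adjusted p = 2.69e-11) and by 0.82 ± 0.07 in WT (adjusted p = 6.46e-11). Its ratio per animal was 0.77 to 1.13 in KO and 0.78 to 0.85 in WT, so that the WT animals lay within a narrow band. The atypical Prkci rose by 0.83 ± 0.14 in KO (adjusted p = 3.13e-05) and by 0.70 ± 0.13 in WT (adjusted p = 7.95e-05). Prkcz, the other atypical isoform, had the smallest rise, 0.54 ± 0.08 in KO (adjusted p = 2.37e-06) and 0.47 ± 0.07 in WT (adjusted p = 4.89e-06).

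**Figure D2:**
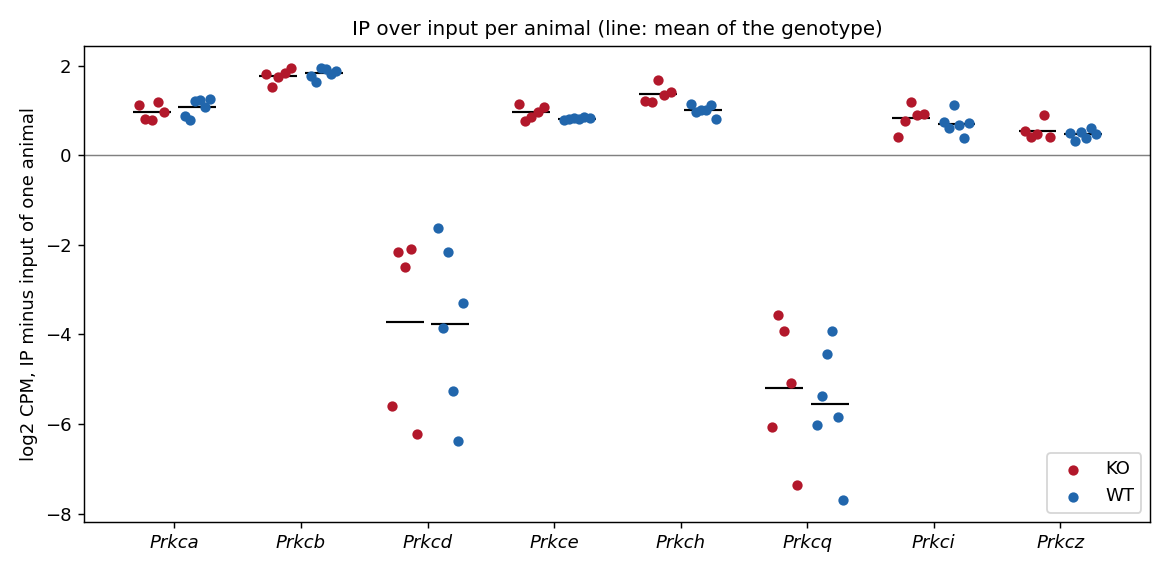
Log2 CPM of IP minus input for each animal, scaled over all 22 libraries, with KO left of WT for each gene and a line at the mean. The 6 enriched genes lie above 0 in every animal, Prkcd and Prkcq lie below 0 in every animal with a wide spread, and the KO and WT points of Prkch do not overlap.

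Prkcq encodes protein kinase C theta, which is best known from T cells. It had 0, 4, 7, 13 and 15 reads in the KO IP libraries and 0 to 15 reads in the WT IP libraries, against 153 to 359 reads in KO input and 199 to 390 reads in WT input. As CPM this was 0 to 0.745 in KO IP and 0 to 0.507 in WT IP, against 6.95 to 9.04 in KO input and 6.62 to 11.3 in WT input. A count of 0 allows up to 0.217 CPM in KO animal 11 and 0.117 CPM in WT animal 20 (3 counts of the library). The log2 difference of IP over input was -5.03 ± 0.57 in KO (adjusted p = 6.48e-08) and -5.82 ± 0.55 in WT (adjusted p = 3.02e-09). Without the 4 animals with high cortical markers it was -6.48 in KO and -5.73 in WT. The 8 markers of endothelium and T cells summed to 3.86 to 9.18 CPM in KO input and 5.40 to 9.92 CPM in WT input. The T cell genes among them, Cd3e and Cd3g, were both at 0 in every KO input library and in input of WT animals 4, 13, 14 and 20. Of the remaining WT input libraries, that of animal 12 had Cd3g at 0 and that of animal 1 had neither at 0. Microglia markers summed to 104 to 154 CPM in KO input and to 93.0 to 147 CPM in WT input. Astrocyte and oligodendrocyte markers summed to 2092 to 3125 CPM and 2575 to 3248 CPM in KO input and to 2169 to 2884 CPM and 2247 to 2995 CPM in WT input. Which cells the Prkcq reads came from was not tested.

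Prkcd encodes protein kinase C delta, whose mRNA is known from thalamic relay neurons and from neurons of the central amygdala. In IP it had 0, 2.29, 0.635, 0.404 and 0 CPM in KO animals 2, 3, 9, 10 and 11, and 3.68, 0.434, 1.28, 0.0338, 0 and 0.195 CPM in WT animals 1, 4, 12, 13, 14 and 20. A count of 0 allows up to 0.0602 CPM in KO animal 2, 0.217 CPM in KO animal 11 and 0.100 CPM in WT animal 14 (counting error only). The highest values of each genotype were those of animals 1, 3, 9 and 12, at 0.635 to 3.68 CPM, against at most 0.434 CPM in the other 7, which is the same split as that of the cortical, interneuron and astrocyte markers in IP. How many of all genes split in this way was not counted. In input Prkcd had 1.47 to 7.90 CPM in KO and 1.91 to 8.75 CPM in WT, with the highest value of each genotype in animals 3 and 1. There Prkcd had 2.89 to 8.75 CPM in animals 1, 3, 9 and 12 and 1.47 to 5.40 CPM in the other 7, which overlapped.

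Its log2 difference of IP over input was -2.96 ± 1.11 in KO (adjusted p = 0.0346) and -2.65 ± 0.98 in WT (adjusted p = 0.0305). Without the 4 animals it was -4.66 in KO (adjusted p = 0.00151) and -5.03 in WT (adjusted p = 0.000200). With the animal as a block it was -3.56 in KO and -3.76 in WT. The call was lost without a filter on low counts (adjusted p = 0.0665 in KO and 0.0574 in WT), in KO also without animal 2, 9, 10 or 11 (adjusted p up to 0.0920), and in WT also without animal 4, 12, 13, 14 or 20 (adjusted p up to 0.0809). The 4 thalamic markers summed to 150 to 213 CPM in IP of the 4 animals, against 132 to 185 CPM in the other 7, which overlapped. Of these markers, Slc17a6 was at 0 in IP of each of the other 7 and above 0 in the 4 animals, the same split as that of Prkcd. Lef1 did not split in this way, since it was at 0 in IP of animals 2, 4 and 12. Slc17a6 was picked after its values were seen, and how many of all genes split as it did was not counted. The part of other cells in the Prkcd values was not tested.

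Mutant against wild type in IP asked whether the isoforms' ribosome-bound mRNA in D1 neurons differed with Fmr1. Of the 7 genes that passed the filter on low counts, edgeR called 0, against 0.0553% of the 14456 genes tested, all lower in KO. At an unadjusted p under 0.05 there were 2, Prkca and Prkcb, against 7.62% of all genes. DESeq2 called 1, Prkca, against 0.875% of the 8568 genes it gave an adjusted p, and limma-voom called 0. The genes' median log2 difference was -0.01, against 0.00 over all genes. Pulldowns and sequencing were done as 1 batch, per the protocols in the labels, so the p-values measure the spread between animals within it.

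Prkca was the 1 isoform of the 7 whose KO and WT libraries did not overlap in IP. It had 332, 266, 314, 288 and 291 CPM in KO IP libraries (animals 2, 3, 9, 10 and 11), and 384, 367, 334, 394, 399 and 453 CPM in WT IP libraries (animals 1, 4, 12, 13, 14 and 20). Every KO value was below every WT value, although the highest KO and the lowest WT library nearly met. Of all 14456 genes, 0.609% were separated in that way. The KO mean was 76.8% of the WT mean, with 298 ± 25.4 CPM in KO against 389 ± 39.5 CPM in WT (SD, n = 5 and 6). The log2 difference was -0.38 ± 0.08 (95% interval -0.55 to -0.22), which ranked 12 of 14456 by p (unadjusted p = 0.000115, adjusted p = 0.126 by edgeR).

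The call on Prkca depended on the tool. DESeq2 on the same counts gave -0.39 ± 0.09 with an adjusted p of 0.00437, and limma-voom gave -0.38 ± 0.08 with an adjusted p of 0.135. In the authors' deposited table the log2 value of WT over KO was 0.387 without shrinkage and 0.348 with it. The adjusted p there was 0.00607, so in that table too Prkca was lower in KO. Over the 18 alternatives the log2 difference lay between -0.42 and -0.33 and the adjusted p between 0.00437 and 0.315, and DESeq2 was the only one of them past the threshold. Without the 4 animals with high cortical markers it was -0.41 (adjusted p = 0.185).

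**Figure D3:**
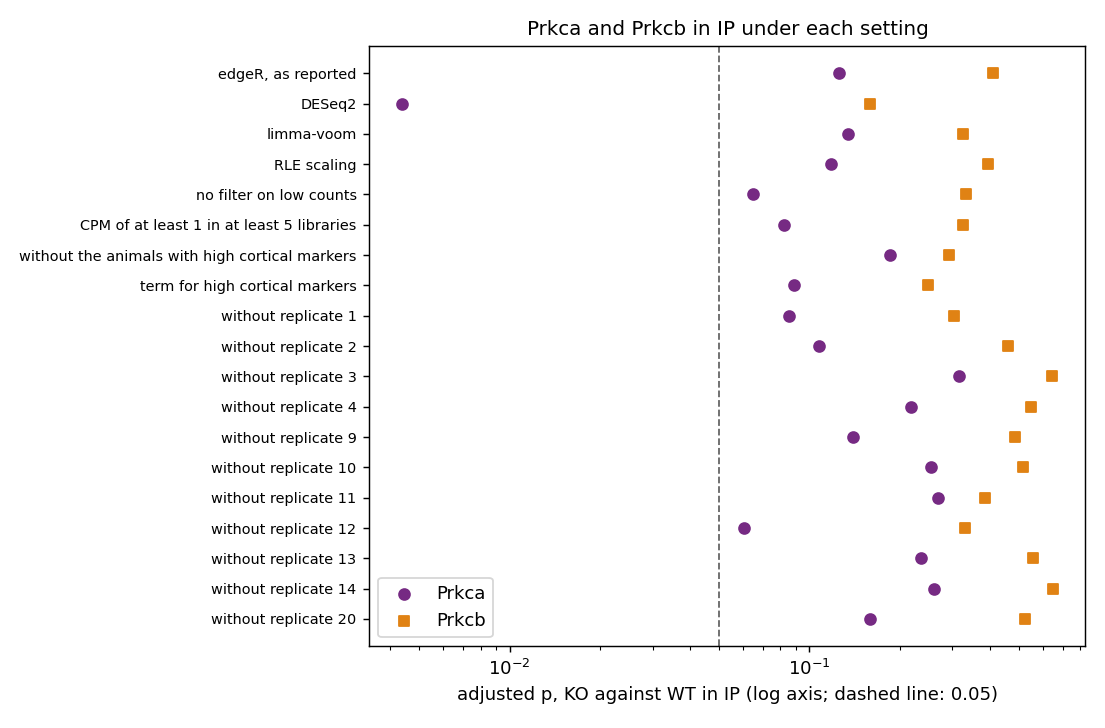
Adjusted p for Prkca and Prkcb, KO against WT in IP, under each setting (log axis, dashed line at 0.05; replicate numbers are animal numbers). Prkca falls below 0.05 with DESeq2 (0.00437) and lies between 0.0603 and 0.315 in the rest, and Prkcb lies between 0.159 and 0.649.

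Prkcb had 2732, 2025, 2687, 2635 and 2949 CPM in KO IP libraries (animals 2, 3, 9, 10 and 11), and 3027, 3163, 2743, 3043, 3378 and 3509 CPM in WT IP libraries (animals 1, 4, 12, 13, 14 and 20). Of the 5 KO libraries, 4 lay below the lowest WT library and all 5 below the WT median. The log2 difference was -0.27 ± 0.08 (95% interval -0.45 to -0.10, adjusted p = 0.411 by edgeR), a KO mean of 82.9% of the WT mean. It was -0.24 without the 4 animals (adjusted p = 0.291). In the authors' deposited table its adjusted p was 0.187.

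The other isoforms that could be tested in IP had intervals that spanned 0. Prkce had a log2 difference of 0.03 (95% interval -0.10 to 0.15), Prkch one of -0.01 (-0.22 to 0.19), Prkci one of -0.01 (-0.24 to 0.22) and Prkcz one of 0.08 (-0.08 to 0.24). Their KO libraries overlapped with the WT libraries, at 731 to 880 against 748 to 798 CPM for Prkce, 138 to 170 against 132 to 193 CPM for Prkch, 152 to 194 against 128 to 222 CPM for Prkci and 186 to 226 against 168 to 213 CPM for Prkcz. The differences without the 4 animals were 0.01 for Prkce, -0.01 for Prkch, -0.09 for Prkci and 0.18 for Prkcz, the last with a 95% interval of -0.01 to 0.38. For Prkcd the interval, -3.51 to 2.42 around -0.54, left the direction unresolved. Its difference was 0.98 without WT animal 1 and -1.86 without KO animal 3, and without the 4 animals it did not pass the filter on low counts. Prkcq did not pass the filter with all animals.

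**Figure D4:**
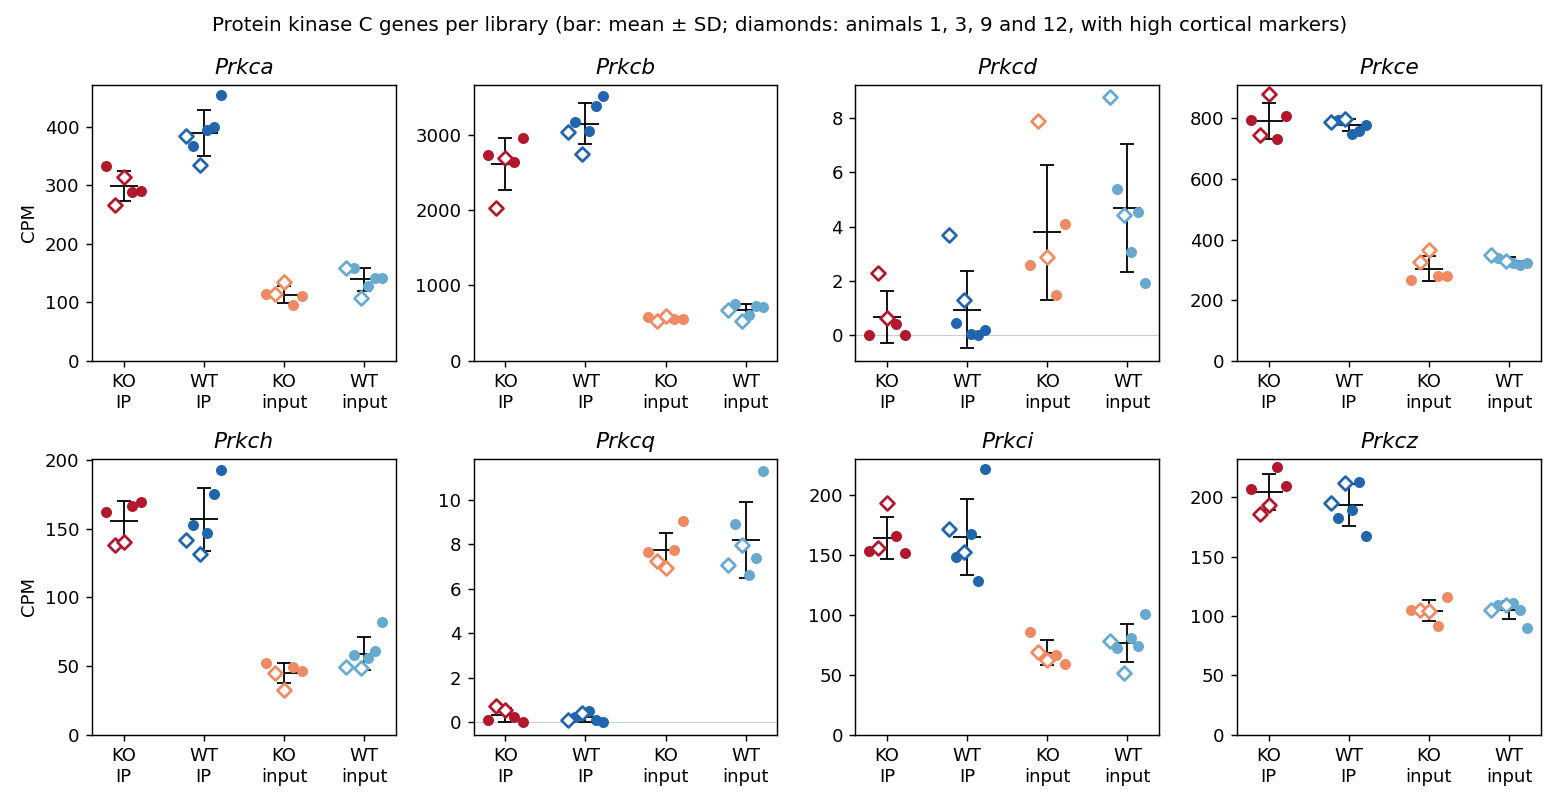
CPM of each gene in every library, with the mean ± SD of each group (KO IP, WT IP, KO input, WT input; CPM are scaled within an assay), and open diamonds for animals 1, 3, 9 and 12. All KO IP points of Prkca lie below all WT IP points, and in IP the diamonds of Prkcd lie above the other points and those of Prkch below them.

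In input all 8 genes were tested, and edgeR called 0, against 0.0183% of 16429 genes, all lower in KO. At an unadjusted p under 0.05 there were 3, Prkch, Prkca and Prkcb, against 6.84% of all genes. There were 4 without the 4 animals, with Prkce added, against 10.8% of all genes. DESeq2, which called 0.174% of all genes, and limma-voom called 0 of the 8. All 8 log2 differences were below 0, with a median of -0.20 against 0.00 over all genes, of which 49.5% were below 0. The direction held in each of the 18 alternatives for 6 of them, whereas Prkcz was below 0 in 11 of the 18 and Prkcq in 17. These alternatives refit the same counts or most of them, and how often other genes kept their direction was not counted. The 10 D1 markers had a median of -0.27 in input (0 called) and a summed level of 642 to 903 CPM in KO and 801 to 1092 CPM in WT. In IP their median was -0.08 (0 called), at 2617 to 2833 CPM in KO and 2449 to 3157 CPM in WT. The part of the cell makeup of the lysate in the isoforms' input values was not tested.

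Prkch had 52.0, 45.1, 32.6, 49.0 and 46.7 CPM in KO input libraries (animals 2, 3, 9, 10 and 11), and 49.1, 57.9, 48.4, 55.7, 60.9 and 81.7 CPM in WT input libraries (animals 1, 4, 12, 13, 14 and 20). All 5 KO libraries lay below the WT median and 3 below the lowest WT library. The log2 difference was -0.39 ± 0.14 (95% interval -0.67 to -0.10, adjusted p = 0.572 by edgeR). Without the 4 animals with high cortical markers it was -0.38 (adjusted p = 0.287).

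Prkca had 114, 113, 134, 94.8 and 110 CPM in KO input libraries (animals 2, 3, 9, 10 and 11), and 159, 159, 107, 128, 142 and 142 CPM in WT input libraries (animals 1, 4, 12, 13, 14 and 20). The groups overlapped through KO animal 9 and WT animal 12, both with high cortical markers. The log2 difference was -0.30 ± 0.11 (95% interval -0.52 to -0.08, adjusted p = 0.577), and without the 4 animals it was -0.42 (adjusted p = 0.109). Prkcb had 526 to 598 CPM in KO and 527 to 754 CPM in WT, a log2 difference of -0.25 ± 0.09 (95% interval -0.44 to -0.06, adjusted p = 0.577), and -0.31 without the 4 animals (adjusted p = 0.147).

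Prkce had an input difference of -0.12 (95% interval -0.29 to 0.06), Prkci one of -0.16 (-0.44 to 0.13), Prkcq one of -0.09 (-0.44 to 0.26), Prkcd one of -0.29 (-1.15 to 0.56) and Prkcz one of -0.01 (-0.18 to 0.16). Prkce was at -0.23 without the 4 animals (95% interval -0.38 to -0.08, unadjusted p = 0.00623, adjusted p = 0.238), and without KO animal 9 alone at -0.18. Prkci was at -0.22, Prkcq at -0.07, Prkcd at -0.43 and Prkcz at 0.01 without the 4 animals. Prkcd ranged from -0.75 without KO animal 3 to -0.02 without WT animal 1, and Prkcq turned to 0.03 without WT animal 20. For Prkcz the interval with all animals spans a change of 0.885-fold to 1.12-fold. For Prkca and Prkcb the differences in IP and input were of similar size, and the test of the difference between them is the interaction.

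**Figure D5:**
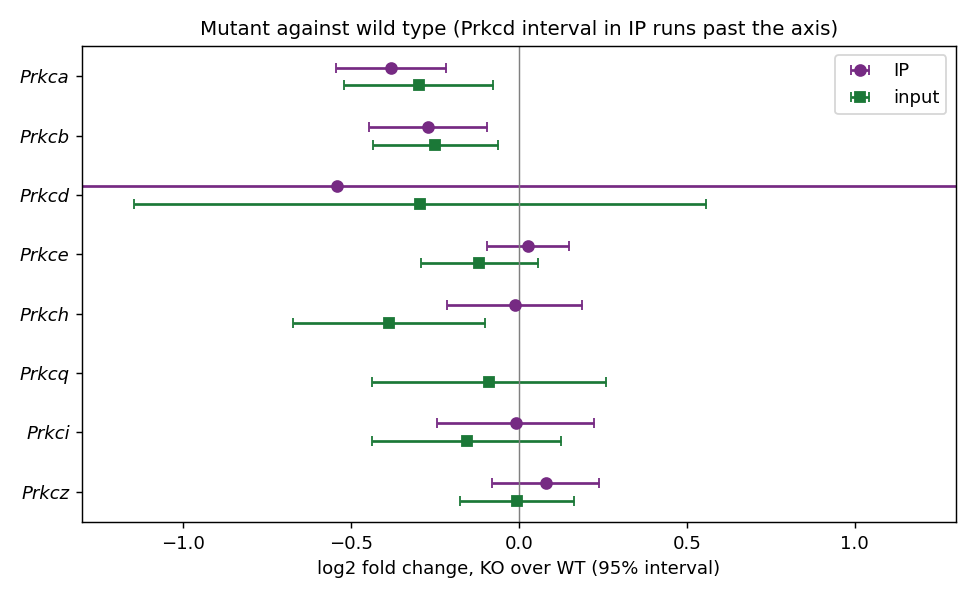
Log2 fold change of KO over WT for each gene with its 95% interval, in IP (circles) and input (squares); Prkcq was not tested in IP and the IP interval of Prkcd, -3.51 to 2.42, runs past the axis. Prkca and Prkcb have intervals below 0 in both assays, and Prkch has one below 0 in input and one around 0 in IP.

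The interaction asked whether IP over input differed between the genotypes. edgeR called 0 of the 8 genes and 0% of 17311, 0 of the 8 had an unadjusted p under 0.05, against 4.1% of all genes, and DESeq2, which called 0.0289% of all genes, and limma-voom called 0 of the 8. The interaction of Prkca was -0.09 ± 0.14 (95% interval -0.38 to 0.19) and that of Prkcb -0.03 ± 0.13 (-0.30 to 0.23). Prkch had the smallest p, with 0.36 ± 0.18 (95% interval -0.01 to 0.73, unadjusted p = 0.0543, adjusted p = 1.00). The log2 ratio of IP over input of Prkch was 1.21, 1.2, 1.68, 1.35 and 1.42 in KO animals 2, 3, 9, 10 and 11, and 1.14, 0.97, 1.01, 1.00, 1.11 and 0.82 in WT animals 1, 4, 12, 13, 14 and 20. Every KO ratio was above every WT ratio, as in 0.237% of the 17311 genes. Between the genotypes Prkch differed by -0.01 in IP and by -0.39 in input. The 10 D1 markers also had a higher median log2 difference of IP over input in KO, 1.62 against 1.28 in WT. Whether Prkch differed from these markers in its interaction was not tested. The fit above held no term for the animal, although IP and input of an animal come from the same lysate. With the animal as a block the 95% interval of Prkch was 0.16 to 0.57, and the unadjusted p was 0.00161 with an adjusted p of 1.00. In that fit 777 of the 17311 genes had an unadjusted p under 0.05. Without the 4 animals with high cortical markers the interaction of Prkch was also 0.36 (unadjusted p = 0.0478, adjusted p = 0.945).

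Prkce had an interaction of 0.13 (95% interval -0.07 to 0.33) with all animals, and of 0.23 (95% interval 0.06 to 0.41, unadjusted p = 0.0115, adjusted p = 0.889) without the 4. Prkce and Prkch were then 2 of the 8 genes with an unadjusted p under 0.05, against 5.27% of all genes. The interactions of the classical isoforms without the 4 animals were 0.00 for Prkca and 0.07 for Prkcb. Those of the atypical isoforms were 0.12 for Prkci, against 0.14 with all animals, and 0.16 for Prkcz, against 0.08. Prkcq was at -0.75 without the 4 animals and 0.79 with all, and Prkcd at 0.36 and -0.31, each with an interval that spanned 0.

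Prkch also differed among animals within a genotype. In IP it had 132 to 142 CPM in the 4 animals with high cortical markers, against 147 to 193 CPM in the other 7. In input it had 32.6 to 49.1 CPM in the 4 animals, against 46.7 to 81.7 CPM in the other 7, and these ranges overlapped. The summed D1 markers in input were 642 to 868 CPM in the 4 animals and 872 to 1092 CPM in the other 7. In IP these sums were 2449 to 2803 CPM in the 4 animals and 2748 to 3157 CPM in the other 7, which overlapped. How many of all genes split between these animals as Prkch did in IP was not counted.

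The genes closest to each isoform over the 22 libraries were found by the root-mean-square difference of log2 CPM after centring each of 12105 genes on its mean. Prkca was closest to Rasgrp1, another diacylglycerol receptor, at 0.122, and to Arfgef3 at 0.126, against a median of 0.622 over all genes. Prkcb was closest to Eya1 (0.180), one of the D1 markers, and Bcor (0.193). Prkch was closest to the phosphodiesterase genes Pde7b (0.140) and Pde10a (0.146), both known for their striatal expression. Prkce was closest to Ogfod1 (0.0882) and Stxbp5 (0.0930), Prkci to Aqr (0.141) and Ift57 (0.149), and Prkcz to Eif4b (0.111) and Phf12 (0.113). For the 2 isoforms that fell in IP the nearest genes lay farther away, with Zic1 (0.889) and Syt17 (0.897) nearest to Prkcd, against a median of 2.43, and Ncf1 (0.503) and Htra1 (0.583) nearest to Prkcq, against a median of 2.86. Among the isoforms themselves the closest pair was Prkca and Prkce (0.222). The difference between IP and input enters each of these distances, since both assays were among the 22 libraries.

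Other genes of the pathway were also compared between IP and input, where 20.9% of all genes were called higher and 26.4% lower in KO, and 21.8% higher and 27.8% lower in WT. Among 5 tested genes of the related protein kinase N and D families, 1 was called in each genotype. Prkd3, a protein kinase D gene, fell, with log2 differences of -3.07 in KO and -2.78 in WT, and Prkd1, next by p, had -0.34 in KO and -0.26 in WT, which did not pass. Of 16 phospholipase C genes, whose products make or are related to those that make diacylglycerol, 4 were called higher and 8 lower in KO, and 4 higher and 6 lower in WT. Plcb1 rose by 1.23 ± 0.07 in KO and by 1.18 ± 0.07 in WT, whereas Plcd4 fell, with -3.01 in KO and -2.59 in WT.

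Of the 11 diacylglycerol kinases and lipases, which remove diacylglycerol, 8 were called higher and 1 lower in each genotype. Dgkb, a kinase known for its striatal expression, rose by 1.16 ± 0.10 in KO and by 1.02 ± 0.09 in WT, and Dgkh rose by 1.02 ± 0.07 in KO and by 1.07 ± 0.07 in WT. The 1 called lower in KO was Dgka, with -3.37 ± 0.54. Of 8 other diacylglycerol receptors, 4 were called higher and 2 lower in KO, and 4 higher and 1 lower in WT. Rasgrp1, an exchange factor for Ras, rose by 1.03 ± 0.07 in KO and by 0.95 ± 0.06 in WT. Unc13a, a gene for synaptic vesicle priming, rose by 0.95 ± 0.10 in KO and by 1.00 ± 0.10 in WT, and the Rasgrp1-related Rasgrp3 fell, with -4.57 in KO and -4.44 in WT.

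Of 15 genes for priming kinases, scaffolds and phosphatases, 8 were called higher and 3 lower in KO, and 8 higher and 1 lower in WT. Akap5, an anchoring protein that binds protein kinase C, rose by 1.11 ± 0.11 in KO and by 0.94 ± 0.10 in WT. Pdpk1, which phosphorylates the activation loop of these kinases, rose by 0.75 ± 0.07 in KO and by 0.67 ± 0.06 in WT, and the chaperone gene Hsp90ab1 by 0.71 ± 0.07 in KO and by 0.80 ± 0.07 in WT. Of 11 partners of the atypical isoforms, 5 were called higher and 2 lower in KO, and 4 higher and 2 lower in WT. Llgl1, a cell polarity gene, fell, with -1.63 ± 0.16 in KO and -1.54 ± 0.15 in WT, whereas Pard3 rose by 0.71 ± 0.12 in KO and by 0.82 ± 0.11 in WT and Wwc2 by 0.71 ± 0.11 in KO and by 0.71 ± 0.10 in WT. Of 18 substrates, 11 were called higher and 2 lower in KO, and 10 higher and 2 lower in WT, with the potassium channel gene Kcnd2 at 1.2 ± 0.08 in KO and 0.96 ± 0.08 in WT and the adducin gene Add2 at 0.87 ± 0.07 in KO and 0.78 ± 0.07 in WT. The substrate gene Ppp1r14a fell, with -5.24 ± 0.45 in KO and -4.22 ± 0.39 in WT.

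Between the genotypes, edgeR called 0 genes of any of these 7 lists in IP, in input or in the interaction. Unadjusted p-values under 0.05 were found in IP for 3 of the 11 kinases and lipases, for 3 of the 8 other receptors, for 2 of 17 substrates, for 1 of 15 phospholipase C genes and for 1 of 10 atypical partners, against 7.62% of all genes. The medians of these lists in IP were -0.16, -0.10, 0.00, -0.08 and -0.07, against 0.00 over all genes. The 5 protein kinase N and D genes and the 15 priming kinases, scaffolds and phosphatases had 0 and medians of -0.09 and -0.04. In input each list had 0 to 2 such genes, against 6.84% of all genes, and the list medians lay between -0.13 and 0.09. The smallest p of these lists in IP was that of Wwc2, with 43.9 ± 1.73 CPM in KO and 56.9 ± 4.42 CPM in WT, a log2 difference of -0.37 ± 0.09 (unadjusted p = 0.000382, adjusted p = 0.176). Rasgrp1 came next. In IP, Rasgrp1 had 2830 ± 190 CPM in KO and 3259 ± 233 CPM in WT, a log2 difference of -0.20 ± 0.06 that did not pass, and in input 1028 ± 63.2 CPM in KO and 1268 ± 96.8 CPM in WT, one of -0.30 ± 0.08.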

How the data were processed

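Raw counts per gene for 22 libraries were deposited by the authors. Per the submitters' processing notes they were made with STAR and featureCounts on mm10 (versions not given in the sources used here). Per the file headers, 2 further deposited tables hold log2 fold changes with their p-values and adjusted p-values, and DESeq2 is named in the submitters' processing notes. The direction, wild type over mutant, was taken from the sign of Fmr1. The mean, standard error and test statistic columns of these tables were not used.

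From the counts, edgeR 4.0.16 in R 4.3.3 was run with TMM scaling, filterByExpr and robust quasi-likelihood testing. p-values were adjusted by Benjamini-Hochberg over every gene tested, with a threshold of 0.05. KO was compared with WT in the 11 libraries of each assay, and IP with input and the interaction in all 22. The fits used the group only, without a term for the animal. All adjusted p-values come from this test unless DESeq2 1.42.0, limma-voom (limma 3.58.1) or the deposited table is named. SE is the log2 fold change divided by the square root of the F statistic. Log2 CPM used a prior count of 2.

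All 55341 symbols matched GENCODE vM21, which gave positions and the union exon lengths for RPKM. An IP and an input library with the same animal number come from 1 lysate, per the protocols in the labels, and their deviations from the group means correlated at 0.247 to 0.523 in the 11 pairs (genes averaging 10 CPM or more). The members, the gene lists and the tests were chosen with earlier results of these data known. All 8 members were named, list genes from the 4 with the smallest p in a comparison, and nearest genes as the 2 at the smallest distance among named genes with a mean CPM of 1 or more. One listed gene is not reported here, and its list was counted without it. Apoh, AC154542.1, Emx1, Slc17a6, Lef1, Cd3e and Cd3g were chosen after their values were seen. The fits were also run on simulated counts, and no result given here rests on that. Alternatives were DESeq2, limma-voom, RLE scaling, other filters on low counts, leaving out each animal or animals 1, 3, 9 and 12, a term for those 4, and the animal as a block. Floors for counts of 0 cover counting error only.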

Additional observations from a re-analysis of the deposited data

Results flagged for a closer look

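Of 32 groups of libraries checked for a library far from the others of its group, 4 had one, where chance gives about 1 in 20. Prkcd stood at 2.29 CPM in the IP library of KO animal 3, far above the other 4 KO IP libraries, and at 3.68 CPM in the IP library of WT animal 1, far above the other 5 WT IP libraries. Both animals are among the 4 with high cortical markers. In the input library of WT animal 20, Prkch stood at 81.7 CPM, far above the other 5 WT input libraries, and Prkcz at 89.8 CPM, below all of them.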

How the results depend on the processing

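DESeq2 called 1 of the isoforms (Prkca) in IP between the genotypes where edgeR called 0, and over all genes it called 75 in IP, 28 in input and 5 in the interaction, where edgeR called 8, 3 and 0. In IP limma-voom called 5. In input 5 were called with no filter on low counts and 7 without animals 1, 3, 9 and 12. Leaving out each animal in turn gave 4 to 8 genes in IP, 2 to 7 in input and 0 to 2 in the interaction, and 7 to 8 isoforms called in IP against input. With the replicate block (the animal number), 8 isoforms were called in IP against input in each genotype and 0 in the interaction, as without it, so it changed no call. With lengths of the GENCODE basic set, 5 of 8 isoforms kept their place in the order in WT IP. In the tests of single isoforms 0 called values changed direction, and the calls that were lost were those of Prkcd in IP against input. Prkcq had at most 15 reads in any IP library, with 6 in the deepest (WT animal 1, 82376192 counts) and 15 in KO animal 3 (19538306 counts). Prkcd, with up to 308 reads in IP, varied between animals.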
